A study of Mus musculus with 6 samples.

Results

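A set of 10 genes of the matricellular CCN family and of the YAP/TAZ pathway were followed in mouse dorsal root ganglia, the clusters of sensory neurons and their supporting cells beside the spinal cord, after ischemia-reperfusion (I/R) injury of the kidney. They were taken by symbol from a table of 57180 genes, and all 10 had 1 row each: Ccn1, Ccn2, Ccn3, Ccn5, Ankrd1, Amotl2, Yap1, Wwtr1, Tead1 and Lats2. Ganglia from lower thoracic to upper lumbar levels came from 3 mice with I/R and 3 sham-operated mice, all wild type (WT), at 24 h after surgery. In the I/R mice a clamp closed the pedicle of the left kidney for 28 min, after which blood flow returned, and the right kidney was taken out. The labels describe the sham operation as the same without clamping and do not name removal of the right kidney for it separately. Both groups were anesthetized with Zoletil. The sources used here do not give strain, sex or age. The numbers 1 to 3 name the samples of a group. The labels count mice, not litters or surgery days, so p-values measure the spread between these mice.

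CCN proteins are secreted into the matrix, where they bind integrins, proteoglycans and growth factors and change how cells attach, migrate and make matrix. Several of their genes, Ccn1 and Ccn2 above all, are direct targets of YAP and TAZ (the latter encoded by Wwtr1), a pair of coactivators that enter the nucleus when the Hippo kinases are quiet, as in stretched or injured cells, and act on DNA through TEAD factors. LATS kinases phosphorylate YAP and TAZ and keep them in the cytoplasm, and Lats2, Amotl2 and Ankrd1 are in turn YAP targets, the first 2 of them acting as negative feedback. In peripheral nerve this pathway is best known from Schwann cells, where YAP and TAZ take part in myelination.

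Promoter sequences are shown for the 6-base TEAD motif CATTCC. RefSeq windows on GRCm38.p6, of 250 bases before to 50 after a start site, were found for 6 of the 10 genes: Ccn1, Ankrd1, Amotl2, Lats2, Yap1 and Wwtr1. CATTCC, searched on both strands, lay in a window of 6 of these 6 genes, but not in each of their 8 windows. Over all genes it lay in 14.7% of 32851 windows of the same length, or 16.6% of 27025 genes at any of their starts. In the gene lists described below, it lay in 3 of 11 other YAP/TAZ targets with a window and 3 of 18 Hippo genes. The same motif lay in 6 of 14 MRTF/SRF genes and 2 of 10 CCN receptor genes. This is a description, with no test, since the genes were picked as pathway members. The 250 bases before the start of Ccn1 (chr3:145649986-145650235, minus strand) and of Ankrd1 (chr19:36119845-36120094, minus strand) are given with the motif in capitals, as GGAATG where it lies on the strand opposite to the gene.
Ccn1: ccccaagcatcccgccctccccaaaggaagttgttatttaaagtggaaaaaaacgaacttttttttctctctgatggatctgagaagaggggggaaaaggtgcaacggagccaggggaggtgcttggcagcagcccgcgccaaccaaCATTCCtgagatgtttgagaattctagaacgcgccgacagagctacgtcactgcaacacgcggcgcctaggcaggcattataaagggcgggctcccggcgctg
Ankrd1: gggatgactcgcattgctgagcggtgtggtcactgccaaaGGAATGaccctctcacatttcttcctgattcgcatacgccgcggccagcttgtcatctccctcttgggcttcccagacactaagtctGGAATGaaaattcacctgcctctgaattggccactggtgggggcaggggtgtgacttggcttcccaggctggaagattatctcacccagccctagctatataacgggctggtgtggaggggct
The match in Ccn1 began 103 bases before the start, and those in Ankrd1 began 210 and 123 bases before it. For the other 4 genes, 30 bases around the match are shown, from chr9:102717727-102717756 (plus strand, Amotl2), chr14:57746102-57746131 (minus strand, Lats2), chr9:8004720-8004749 (minus strand, Yap1) and chr3:57576029-57576058 (minus strand, Wwtr1).
Amotl2: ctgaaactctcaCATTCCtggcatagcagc
Lats2: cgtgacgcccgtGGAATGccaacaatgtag
Yap1: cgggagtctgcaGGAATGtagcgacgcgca
Wwtr1: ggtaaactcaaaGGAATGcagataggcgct
In Amotl2 and Yap1 the match began 65 and 141 bases before the start, and in Lats2 it began at base 5 after it. Wwtr1 has 2 starts in the table, 136 and 170 bases from the same match. The AP-1 motif TGANTCA and the CArG box, the site of SRF, were searched on both strands too. Neither was found in the windows of these 6 genes, against 7.81% and 1.63% of all windows. Those letters are absent from these windows, which says nothing about sites farther away.

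Library totals ran from 19092650 to 22010227 expected counts. Sensory neuron markers, such as Prph and Avil, were the most abundant of the marker lists, at 15069 to 18015 CPM (counts scaled to library size) summed over 10 genes, and satellite glia and Schwann cell markers were present in all 6 libraries. The 9 Schwann cell markers summed to 7159 to 7427 CPM in sham and 6164 to 6902 CPM in I/R, without overlap. Even so, edgeR, DESeq2 and limma-voom each called 0 of the 9. With edgeR 2 were under 0.05 before adjustment, where 10.5% of all tested genes were. Of 6 satellite glia markers, whose sums overlapped, Fabp7 fell (log2 fold change -0.99, adjusted p = 0.0187). Skeletal muscle markers summed to 486, 17.8 and 248 CPM in sham mice 1 to 3, and to between 6.28 and 13.1 CPM in the I/R libraries. Of the 9 that were tested, edgeR called 2 as lower in I/R, while DESeq2 called 9 and limma-voom 0. All 12 fibroblast and meningeal markers lay below 0 in log2 fold change and 9 of them fell by the test, and their summed level was 1040 to 1271 CPM in the sham mice and 574 to 701 CPM in the I/R mice. In bulk tissue, fewer cells of a type and less RNA per cell cannot be told apart.

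Of the 10 genes, Ccn2 alone passed the test, and it rose about 2-fold in I/R ganglia. Of them, 9 had enough counts to be tested with edgeR's quasi-likelihood test (adjusted p under 0.05 over 16346 genes), and Ankrd1 did not. Over all tested genes 1.15% were called, 0.722% as higher and 0.428% as lower in I/R. The other 8 tested genes, which include the coactivators, the TEAD factor and the LATS kinase, had log2 fold changes between -0.15 and 0.43. The median over the 9 tested genes was 0.05, and the median over all tested genes was 0.00013.

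**Figure D1:**
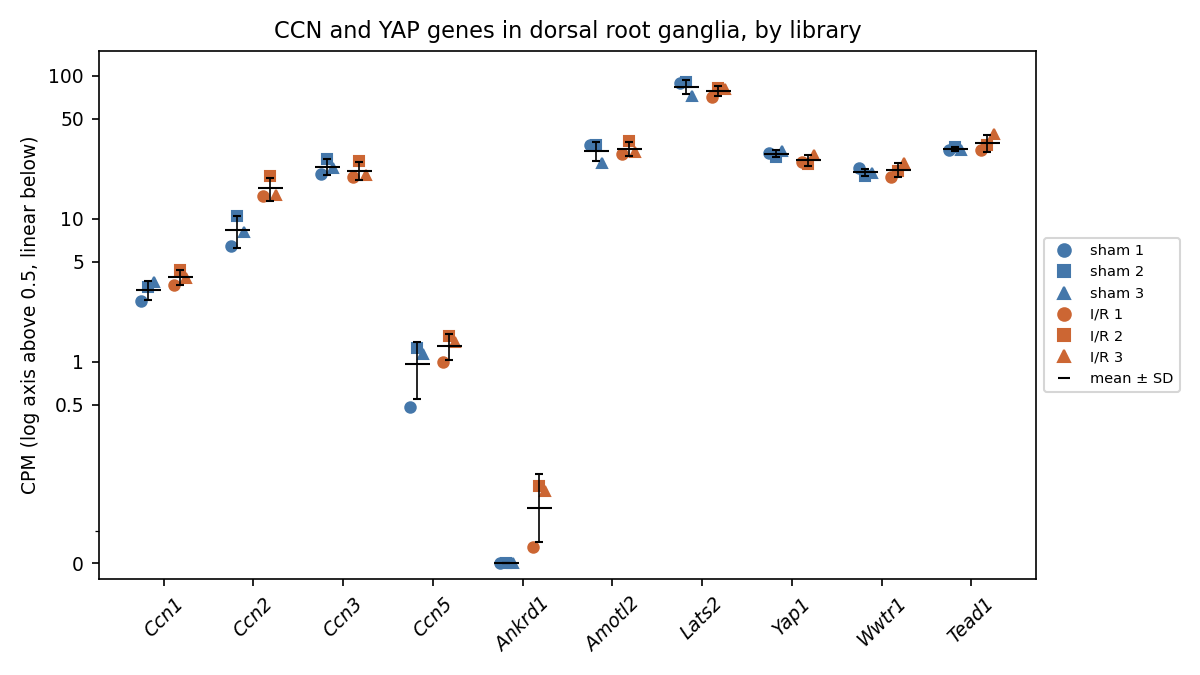
CPM of each of the 10 genes (vertical axis, logarithmic above 0.5 CPM and linear below) in the 3 sham and 3 I/R libraries, with the mean and SD of each group as bars. The I/R points of Ccn2, at 14.5 to 19.9 CPM, lie above all its sham points, while the groups of the other 8 tested genes overlap. Ankrd1 is at 0 in sham and at 0.0494 to 0.242 CPM in the I/R mice.

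Ccn2, or connective tissue growth factor, is the matrix-bound CCN protein most closely tied to fibrosis. It stood at 6.43, 10.5 and 8.02 CPM in sham mice 1 to 3, against 14.5, 19.9 and 14.7 CPM in I/R mice 1 to 3. All 3 I/R libraries were above all 3 sham libraries. Groups kept apart in this way, in either direction, were seen for 17.1% of tested genes. Means were 8.32 ± 2.05 CPM in the sham mice and 16.3 ± 3.04 CPM in the I/R mice (SD, n = 3 per group). The log2 fold change was 0.97 ± 0.19 SE, with a 95% interval of 0.54 to 1.41, and the adjusted p in edgeR's test was 0.0485. By p-value it ranked 186 among the 188 genes called, so the call lies at the threshold.

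The direction of Ccn2 held in each of 15 alternative fits, with log2 fold changes of 0.595 to 1.17, but its call held in 4. DESeq2 (adjusted p = 0.000364) and edgeR without the filter on low counts (0.000128) called it. So did edgeR without sham 2 (0.0205) or I/R 1 (0.0488). With RLE, upper quartile normalization, limma-voom and the stricter filter the adjusted p was 0.0541, 0.0517, 0.0506 and 0.062. In edgeR's test the call was also lost without sham 1 (adjusted p = 0.182), sham 3 (0.137), I/R 2 (0.238) or I/R 3 (0.136), and with the replicate number as a block (0.0506). Sham 2, the sham library with the least skeletal muscle RNA, also had the highest sham level of Ccn2. Against sham 2 alone the log2 fold change was 0.61 (adjusted p = 0.671). That fit takes its spread from the 3 I/R libraries and assumes that the single sham library varies like them, so its adjusted p says little about stability. With all 6 libraries and a muscle covariate the log2 fold change was 0.595, with no call. The muscle sums did not overlap between the groups, so muscle RNA and I/R cannot be told apart in that fit. The summed fibroblast and meningeal markers were lower in I/R while Ccn2 was higher, and the pericyte and smooth muscle markers overlapped, at 270 to 280 CPM in the sham mice and 244 to 288 CPM in the I/R mice. Macrophage markers, 8 genes, summed to 42.7 to 45.4 CPM in the sham mice and 53.5 to 56.4 CPM in the I/R mice. Of these 8, 7 lay above 0 in log2 fold change and 1, Aif1 (-0.32), below. Only Cd163 was called by edgeR (log2 fold change 1.01, adjusted p = 0.0461), and limma-voom called 0 of the 8. All 5 red cell markers fell, and their sum was 181 to 271 CPM in the sham mice and 52.8 to 86.6 CPM in the I/R mice. The 5 oligodendrocyte and spinal cord markers summed to 53.2 to 89.8 CPM in sham and 41.5 to 49.8 CPM in I/R. The most abundant was Mag, at 40.0 to 46.6 CPM in sham and 30.6 to 35.5 CPM in I/R. Mobp, Mog, Gfap and Aqp4 were each highest in sham 1 and sham 3, while sham 2 lay within or below their I/R range. The summed Schwann cell markers were lower in I/R as well. None of the genes on these lists was at 0 in all libraries, and the part of these cell types in the change of Ccn2 was not tested.

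**Figure D2:**
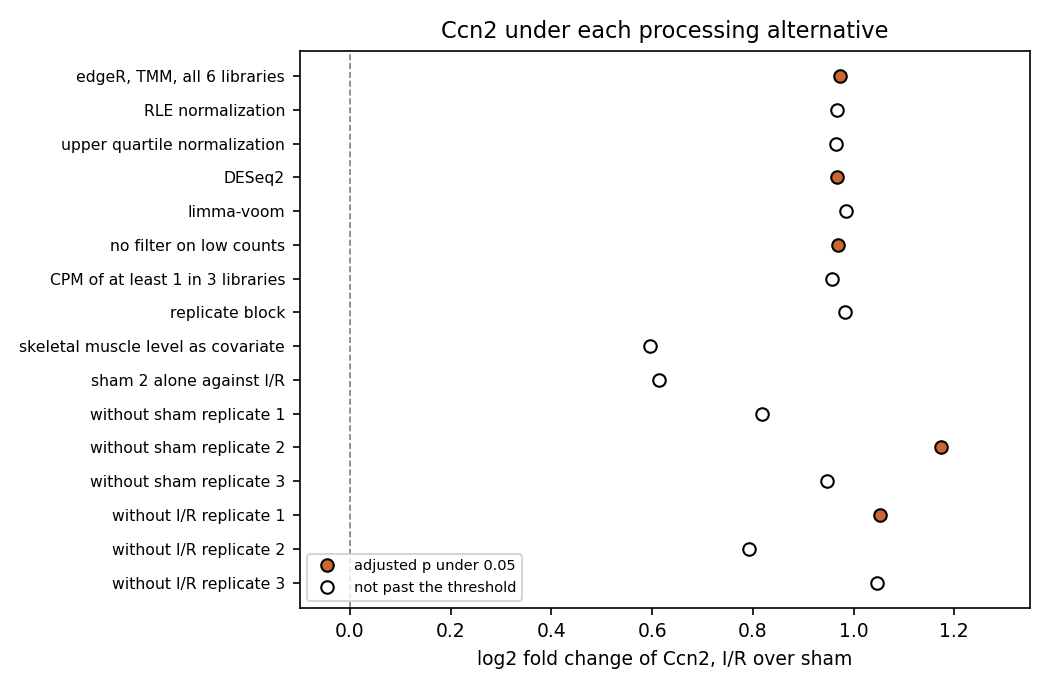
Log2 fold change of Ccn2, I/R over sham (horizontal axis), in the reported fit and in 15 alternatives (vertical axis); filled points have an adjusted p under 0.05. All points lie between 0.595 and 1.17, and 4 of the 15 alternatives are filled. The lowest values, 0.595 and 0.61, are those for the muscle covariate and for sham 2 alone.

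The other CCN genes did not pass the test. Ccn1, also known as Cyr61, an integrin ligand of healing and angiogenic tissue, stood at 2.65, 3.30 and 3.60 CPM in the sham mice and at 3.46, 4.41 and 3.83 CPM in the I/R mice. The groups overlapped, and the log2 fold change was 0.29 ± 0.19 (95% interval -0.13 to 0.72, adjusted p = 0.652 in edgeR's test). That interval reaches a fold of 1.64, short of the estimate of 1.96 for Ccn2 but within its 95% interval of 1.45 to 2.65, so the 2 intervals overlap. Ccn3, also known as Nov, which often opposes Ccn2 in fibrotic tissue, stood at 20.5, 26.3 and 22.7 CPM in the sham mice and at 19.7, 25.2 and 20.2 CPM in the I/R mice. Its log2 fold change was -0.09 ± 0.14 (95% interval -0.40 to 0.21, adjusted p = 0.858). Sham 2 and I/R 2 were the highest of their groups for Ccn3, as they were for Ccn2.

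Ccn5 was the CCN member of lowest level that could be tested, with 10, 25 and 22 counts in sham and 20, 31 and 30 in I/R. Its log2 fold change of 0.43 ± 0.36 had a 95% interval of -0.38 to 1.24 (adjusted p = 0.738), which takes in a doubling as well as no change. The protein differs from its relatives in lacking the C-terminal cystine knot. The deposited Pfam annotation lists all 4 domain types (IGFBP, VWC, thrombospondin type 1 and cystine knot) for Ccn2 and Ccn4, and 2 of them, IGFBP and VWC, for Ccn5. It also lists no thrombospondin domain for Ccn1, Ccn3 and Ccn6, and no VWC domain for Ccn6, so a domain missing from it is not thereby absent from the protein. Outside the 10 genes, Ccn4 stood at 4.85 ± 0.496 CPM in the sham mice and 5.29 ± 0.812 CPM in the I/R mice (log2 fold change 0.12, adjusted p = 0.847), and Ccn6 had 0 to 4 counts per library and was not tested.

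Counted per kilobase of gene length, the make-up of CCN transcripts did not overlap between the groups for Ccn2 and Ccn3. Ccn3 was the leading CCN transcript in each library, at 53.8 to 58.0% of the summed CPM per kb of the 6 CCN genes in sham and 41.1 to 42.8% in I/R. Ccn2 made up 21.8%, 25.8% and 22.8% of it in the sham mice against 37.6%, 38.9% and 35.8% in the I/R mice, so the groups did not overlap. Ccn1 had a share of 9.62 to 12.1% over all 6 libraries. These shares use the level of Ccn2 again and are no separate evidence of its rise.

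Whether Ccn2 changed more than its relatives was tested as the ratio within each library, with 3 of the 4 ratios compared. The log2 ratio of Ccn2 to Ccn1 was 1.28, 1.67 and 1.16 in sham and 2.07, 2.17 and 1.94 in I/R, a difference of 0.69. The ratio of Ccn2 to Ccn3 was -1.67, -1.32 and -1.50 in sham and -0.45, -0.35 and -0.46 in I/R, a difference of 1.08. Neither pair of groups overlapped, and each gave a two-sided exact permutation p of 0.1 (adjusted p = 0.133), the smallest that 3 against 3 allows. The ratio of Ccn2 to Ccn5 differed by 0.47 with overlapping groups (exact permutation p = 0.2, adjusted p = 0.2). These ratios were chosen after the values had been seen.

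The classical YAP targets Ankrd1, Amotl2 and Lats2 gave no call: the first could not be tested and the other 2 did not pass. Ankrd1, a nuclear and sarcomeric ankyrin repeat protein of stressed muscle, had 0 counts in each sham library and 1, 5 and 5 counts in I/R 1 to 3. Set against a floor of 3 counts over the sham group, 11 counts over the I/R group were 3.49-fold higher. The floor covers counting error in the sham group only, and the 11 counts were taken as exact, so this is not a lower bound. Without the filter on low counts Ankrd1 had an adjusted p of 0.181 in edgeR's test. Skeletal muscle markers were highest in sham 1 and sham 3, where Ankrd1 had 0 counts.

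Amotl2, an angiomotin family protein that binds YAP at junctions and holds it out of the nucleus, stood at 32.7, 32.7 and 24.6 CPM in the sham mice and at 28.3, 34.8 and 29.3 CPM in the I/R mice. The log2 fold change was 0.04 ± 0.14 (95% interval -0.27 to 0.34, adjusted p = 0.948), and its sign turned in 4 of 15 alternatives. Lats2, the kinase, stood at 88.7, 91.0 and 72.7 CPM in the sham mice and at 71.0, 82.9 and 80.7 CPM in the I/R mice. Its log2 fold change was -0.11 ± 0.11 (95% interval -0.36 to 0.15, adjusted p = 0.805). For both genes the groups overlapped, and the intervals leave out a change of the size estimated for Ccn2.

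Transcripts of the coactivators and of the TEAD factor did not pass the test. Yap1 stood at 28.7, 26.9 and 30.0 CPM in the sham mice and at 24.8, 24.1 and 28.0 CPM in the I/R mice. Its log2 fold change was -0.15 ± 0.11 (95% interval -0.39 to 0.08, adjusted p = 0.676). Wwtr1 stood at 22.5, 20.0 and 20.9 CPM in the sham mice and at 19.6, 21.7 and 24.5 CPM in the I/R mice, with a log2 fold change of 0.05 ± 0.12 (95% interval -0.21 to 0.32, adjusted p = 0.906). Both genes had overlapping groups. YAP and TAZ are regulated mainly by phosphorylation and location, which RNA levels do not show.

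Tead1, which encodes the DNA-binding partner of YAP and TAZ, stood at 30.1, 31.9 and 30.1 CPM in the sham mice and at 30.0, 33.1 and 39.0 CPM in the I/R mice. The I/R 3 library was the highest of the 6, while I/R 1 lay at the sham level. The log2 fold change was 0.15 ± 0.12 (95% interval -0.11 to 0.41, adjusted p = 0.707). The log2 ratio of Wwtr1 to Yap1 was -0.35, -0.43 and -0.52 in sham and -0.34, -0.15 and -0.20 in I/R, a difference of 0.20 (exact permutation p = 0.1, adjusted p = 0.133 over the 4 ratios). The groups did not overlap, but sham 1 and I/R 1 were nearly equal.

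**Figure D3:**
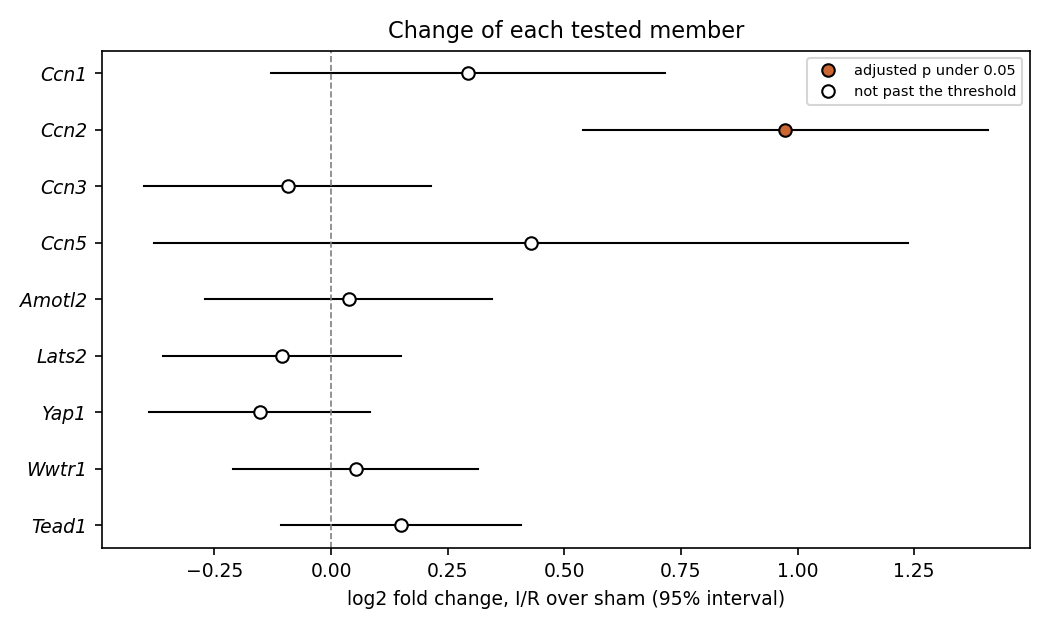
Log2 fold change, I/R over sham (horizontal axis), of the 9 tested genes, each with its 95% interval; the filled point has an adjusted p under 0.05. The interval of Ccn2 runs from 0.54 to 1.41, and the intervals of the other 8 genes include 0, the widest being that of Ccn5.

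Compared per length, Lats2 had the highest level and Ankrd1 the lowest in both groups. In sham ganglia Lats2 led with 16.2 ± 1.92 CPM per kb, followed by Ccn3 (8.07 ± 1.03), Amotl2 (7.11 ± 1.10) and Yap1 (6.84 ± 0.381), 3 neighbours whose libraries overlapped. Wwtr1 came next with 4.66 ± 0.282 CPM per kb, and then Ccn2 (3.47 ± 0.856) and Tead1 (3.08 ± 0.104), which overlapped. Ccn1 (1.58 ± 0.240) and Ccn5 (0.557 ± 0.238) were lower and apart from each other. In I/R ganglia the order was the same but for Ccn2, which at 6.81 ± 1.27 CPM per kb stood between Amotl2 and Yap1 and overlapped both.

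Beyond the 10 genes, 6 lists of other pathway genes held 78 genes, of which 74 were tested. Gadd45a and Igfbp3 rose and none fell, so 2 of 74 (2.7%) were called. The background of 1.15% stands for all tested genes. The median log2 fold change of the 74 was -0.02.

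No gene of the Hippo cascade itself was called. Its 21 genes, among them the kinase genes Stk3, Stk4 and Lats1 and the scaffold genes Sav1 and Nf2, had log2 fold changes from -0.11 to 0.22 with a median of 0.07, and 0 of the 21 were under 0.05 in edgeR's test even before adjustment, as 10.5% of all tested genes were. DESeq2 and limma-voom called 0 of them as well. Strn3, a striatin of the phosphatase complex that opposes the Hippo kinases, and Taok1, a kinase upstream of them, had the smallest p, with log2 fold changes of 0.19 and 0.19 (adjusted p = 0.516 and 0.657). Of 7 other TEAD and VGLL genes, 5 were tested and edgeR, limma-voom and DESeq2 each called 0, while 1 was under 0.05 before adjustment with edgeR. Tead3 stood at 6.20 ± 0.979 CPM in the sham mice and 8.13 ± 0.239 CPM in the I/R mice (log2 fold change 0.39, adjusted p = 0.387). Vgll4, which competes with YAP for TEAD, lay at -0.19 on the log2 scale (adjusted p = 0.549).

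Among 17 other YAP/TAZ target genes, 2 rose and none fell, with a median of 0.09. Before adjustment 7 of the 17 were under 0.05, where 10.5% of all tested genes were. Of these 7, Ccdc80 (log2 fold change -0.39) and Ptpn14 (-0.34) were lower in I/R and the others higher. The groups did not overlap for 7 of the 17, 6 higher and 1 lower in I/R, beside the 17.1% of all tested genes. Gadd45a, a growth arrest and DNA damage gene that also answers to stress and nerve injury, stood at 17.9, 17.2 and 20.1 CPM in the sham mice and at 58.5, 46.6 and 38.3 CPM in the I/R mice. Its groups lay far apart, with a log2 fold change of 1.38 ± 0.15 (adjusted p = 0.00185). Igfbp3, which binds insulin-like growth factors in the extracellular fluid, stood at 11.4, 11.3 and 10.1 CPM in the sham mice and at 17.6, 18.4 and 20.6 CPM in the I/R mice. Its log2 fold change was 0.79 ± 0.12 (adjusted p = 0.0107), and the call was lost without sham 1 (adjusted p = 0.056), I/R 2 (0.0634) or I/R 3 (0.0505). The remaining 15 genes, which include the receptor kinase gene Axl, the 5'-nucleotidase gene Nt5e and the phosphatase gene Ptpn14, did not pass. With the replicate block, neither Gadd45a (adjusted p = 0.0504) nor Igfbp3 (0.106) was called. Against sham 2 alone their log2 fold changes were 1.46 and 0.72, close to the reported values, with no call.

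The MRTF/SRF list held Srf, its coactivators Mrtfa and Mrtfb and their targets, actin cytoskeleton genes that share regulators with Ccn1 and Ccn2. Of the 16 tested genes of the list, edgeR called none. Before adjustment 4 were under 0.05, the regulator Mrtfb (log2 fold change 0.29) among them, where 10.5% of all tested genes were. Tpm2, a tropomyosin of muscle, stood at 40.3, 7.80 and 26.4 CPM in the sham mice and at 7.96, 8.47 and 5.84 CPM in the I/R mice. Its high libraries were those with the most skeletal muscle RNA. The log2 fold change of Tpm2 was -1.74 (adjusted p = 0.144) and became 0.33 with the muscle level as a covariate. That level did not overlap between the groups, so muscle RNA and I/R cannot be told apart here, and the cause was not tested. Zyx, a focal adhesion gene, stood at 73.3 ± 8.60 CPM in the sham mice and 97.7 ± 6.07 CPM in the I/R mice, with groups that did not overlap (log2 fold change 0.41, adjusted p = 0.148). DESeq2 and limma-voom called none of the 16 either.

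Of 14 genes for CCN receptors, edgeR called none. Before adjustment Itgb3, Itgb1 and Itgam, 3 of the 14, were under 0.05, where 10.5% of all tested genes were. Itgam had the largest log2 fold change of the list, 0.82 (adjusted p = 0.276), at 1.53 ± 0.241 CPM in the sham mice and 2.70 ± 0.782 CPM in the I/R mice. Itgb3, the beta chain of an integrin that binds Ccn1 and Ccn2, stood at 31.7, 37.4 and 33.0 CPM in the sham mice and at 20.6, 25.0 and 23.4 CPM in the I/R mice. Its groups did not overlap, and its log2 fold change of -0.56 ± 0.12 just missed the threshold (adjusted p = 0.0546). DESeq2 called it (adjusted p = 0.00431), and limma-voom called none of the 14. Itgb1, the most widely shared integrin beta chain, stood at 269 ± 18.4 CPM in the sham mice and 336 ± 18.7 CPM in the I/R mice (log2 fold change 0.32, adjusted p = 0.185).

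**Figure D4:**
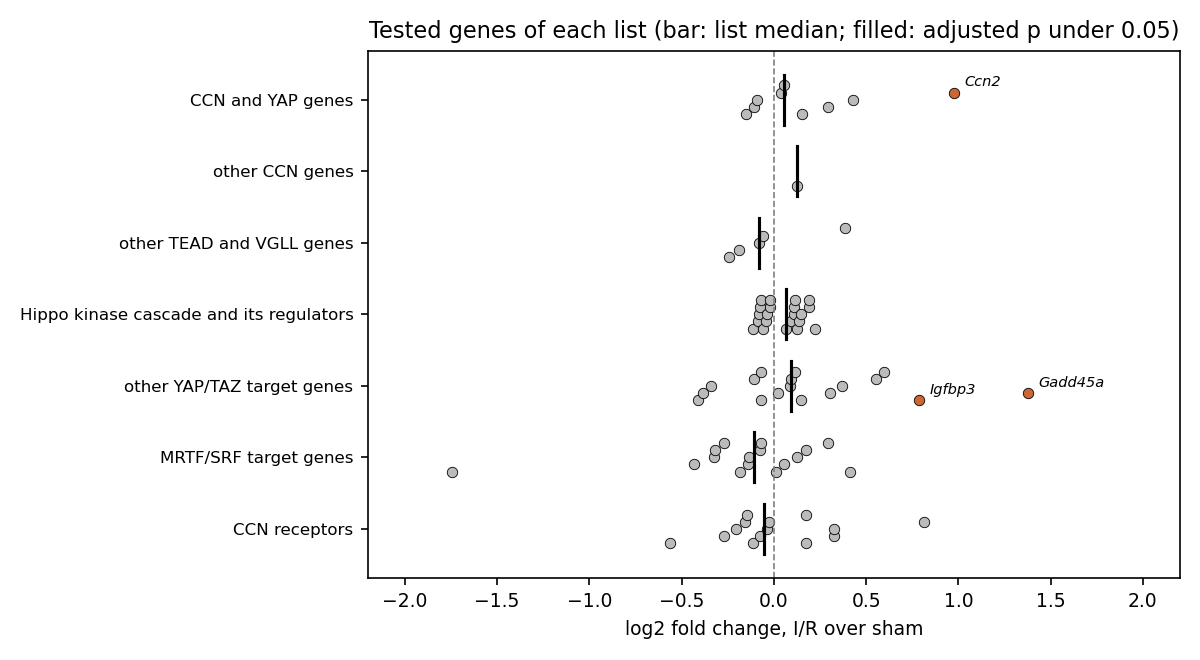
Log2 fold change, I/R over sham (horizontal axis), of each tested gene, by gene list (vertical axis, with points spread vertically only to keep them apart); bars mark list medians and filled, named points have an adjusted p under 0.05. Ccn2, Igfbp3 and Gadd45a are the 3 filled points, and the Hippo cascade genes lie within -0.11 and 0.22.

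Predicted and unnamed genes were left out of the search for genes with a profile like that of Ccn2 over the 6 libraries. Among the other tested genes the 3 closest, by the root mean square difference of centred log2 CPM, were Hdc (0.129), Fbxl9 (0.139) and Loxl2 (0.163). Hdc, the histidine decarboxylase of histamine-making cells, stood at 0.982, 1.40 and 1.34 CPM in the sham mice and at 2.32, 2.66 and 2.14 CPM in the I/R mice, and it did not pass the test (adjusted p = 0.124). Fbxl9 stood at 1.91 ± 0.213 CPM in the sham mice and 3.68 ± 0.848 CPM in the I/R mice (adjusted p = 0.0977). Loxl2, a collagen cross-linking enzyme, rose by 0.82 ± 0.14 on the log2 scale, from 7.29 ± 0.984 to 12.8 ± 0.852 CPM (adjusted p = 0.0193). The likeness is a description over 6 libraries, which all enter the comparison of the groups too.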

How the data were processed

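RNA from dorsal root ganglia of 6 mice was sequenced from stranded Illumina mRNA libraries, per the labels' protocols. The authors deposited expected counts per Ensembl gene, not scaled to library size (10.7 to 11.5% of values per library were not whole). Per the submitters' processing notes, the tools were fastp, HISAT2 and StringTie and the assembly GRCm39; the sources used here do not give the counting program or its strand setting. Counts were rounded and tested with edgeR 4.0.16 (R 4.3.3; quasi-likelihood, TMM, filter by expression keeping 16346 genes, Benjamini-Hochberg over all of them). SE was derived from the log2 fold change and F. CPM used TMM-scaled totals; CPM per kb used the deposited gene length. The authors' group means were not used. Floors (3 counts, 0.137 to 0.154 CPM per library) cover counting error only and leave out the spread between mice. The 95% intervals of fold changes use the SE of the fit and include that spread. The reads carried no molecular identifiers. On simulated data (16137 genes of the I/R against sham comparison) the share of changed genes found was 26.9% at 1.5-fold, 86.6% at 2-fold and 98.5% at 4-fold, and 6.62% of 151 calls were false. Replicates of a group differed beyond sampling noise (chi-square per degree of freedom 4.05 to 27.9).

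Alternatives tried were DESeq2 1.42.0, limma-voom (limma 3.58.1), upper quartile and RLE normalization, 2 other filters, the replicate block, a muscle covariate, sham 2 alone, and leaving out each library. The members, lists, markers and tests were chosen with earlier results of these data known. Named genes were the 10 members and the 3 genes nearest to a called member, leaving out predicted and unnamed genes. From each list they were the called genes, or else its 2 of smallest p. Other genes are named as examples of list membership or to describe a list. Beside the 6 pathway lists, 1 further list was planned and is not reported here. Ratios used exact permutation tests (scipy 1.17.1). Promoters came from RefSeq (GRCm38.p6), and no coordinates were mixed with those of GRCm39.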

Additional observations from a re-analysis of the deposited data

How the results depend on the processing

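For the 8 tested members other than Ccn2, 113 of 120 values under the 15 alternatives kept their direction, 0 were called, and log2 fold changes ran from -0.30 to 0.66. Signs turned for Ccn5 (-0.088) and Amotl2 (-0.019) with the muscle covariate, Amotl2 (-0.11) and Ccn4 (-0.028) against sham 2 alone and Tpm2 with the muscle covariate (0.33). With a library left out they turned for Ccn3 (range -0.233 to 0.0054), Amotl2 (-0.0863 to 0.103) and Wwtr1 (-0.0334 to 0.128). The log2 fold change of Ccn2 had no call and was 0.97 with RLE, 0.96 with upper quartile normalization, 0.99 with limma-voom, 0.96 with a CPM of at least 1 in 3 libraries, 0.98 with the replicate block, 0.595 with the muscle covariate and 0.61 against sham 2 alone. When a library was left out it was 0.79 to 1.17, with a call without sham 2 (1.17) or I/R 1 (1.05) and none in the other 4 fits. So 0 of the members were called in those 7 fits, and 0 to 1 when a library was left out. Over all genes, 188 calls became 312 with DESeq2, 494 without the filter, 63 with the replicate block, 22 with the muscle covariate and 32 against sham 2 alone, and 87 to 181 when a library was left out. Other YAP/TAZ targets had 0 calls with the replicate block, the covariate and sham 2 alone, and 1 to 2 when a library was left out. CCN receptors had 1 call with upper quartile normalization, DESeq2, no filter and the stricter filter. The MRTF/SRF list had 1 call without the filter, and 0 to 1 when a library was left out, Tpm2 in both cases. The causes were not tested. Same-numbered sham and I/R libraries deviated together with correlations of -0.106, 0.135 and -0.123, so the numbers were not taken to pair mice. With 3 mice per group at this depth a change under 2-fold could often be missed, and Ankrd1, Ccn5 and Ccn6 were limited by their counts.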
